A study of Homo sapiens with 6 samples.

Results

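The AP-1 genes encode the subunits of activator protein 1, a dimeric transcription factor, and 9 of them (JUN, JUNB, JUND, FOS, FOSB, FOSL1, FOSL2, ATF2 and ATF3) were followed here among the 32192 genes counted in A549 cells. They were taken by name. The family was chosen by earlier results of these same libraries, in which the level of JUN was above Ctrl under APEX1 overexpression. The differences between the conditions are therefore given for the 9 genes as a description. Calls of these genes are reported below, but they rest on the values that chose the family and are no independent test. A549 is an established line from a human lung adenocarcinoma. The 3 APEX1-OE libraries came from A549 cells transfected with a plasmid that carries APEX1, and the 3 Ctrl libraries from A549 cells transfected with the control plasmid. Both plasmids were introduced transiently, and RNA was purified by its poly(A) tail for stranded libraries. Alternative splicing, the main subject of the study, was not analysed here. In bulk RNA of this kind, more transcript in every cell and transcript in more of the cells cannot be told apart.

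AP-1 binds DNA as a pair of basic leucine zipper proteins. JUN proteins pair with each other or with FOS and ATF proteins, FOS proteins need a JUN partner, and the make-up of the pair sets which sites are bound and how strongly genes are activated. Many of these genes respond within minutes to growth factors, stress and serum through the MAP kinases. APEX1, also called Ref-1, is a DNA repair endonuclease that also keeps a cysteine in the DNA-binding part of JUN and FOS proteins reduced, which allows them to bind, so it is known as a redox partner of AP-1 at the protein level. Protein and its redox state were not measured in these libraries, which report transcripts alone.

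The counts of a library summed to at least 28131955 (Ctrl replicate 1) and at most 41009197 (APEX1-OE replicate 2). Levels are given as the deposited FPKM (fragments scaled to transcript length and to library size), and differences between libraries as CPM (counts scaled to library size with TMM factors) or as the log2 fold change of APEX1-OE minus Ctrl fitted by the quasi-likelihood method of edgeR. A gene is said to be called when its Benjamini-Hochberg adjusted p over the 16971 genes with enough counts was under 0.05. All 9 AP-1 genes were in both tables and among these 16971 genes. Nothing in the labels says that the replicates were separate cultures, so p values measure the spread between these libraries, which may be technical. The libraries also fell into sets that cut across the conditions. On the first principal component of log2 CPM, with 72.6% of the variance, APEX1-OE replicate 1 lay with Ctrl replicates 1 and 2 (set A), and Ctrl replicate 3 with APEX1-OE replicates 2 and 3 (set B). For APEX1 and the 9 AP-1 genes, values within each set are therefore given beside the pooled ones.

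The overexpressed gene itself checked the labels. APEX1 was at 618, 680.3 and 768 FPKM in the APEX1-OE libraries, against 129, 126 and 124 FPKM in the Ctrl libraries, in the order of their replicate numbers. Every APEX1-OE library was far above every Ctrl library, at a log2 fold change of 2.42, whose standard error was 0.171 and whose adjusted p in the quasi-likelihood test of edgeR was 0.00809, and within the sets the log2 difference was 2.39 and 2.54. This call was lost on leaving out replicate 2 or 3 of APEX1-OE, and also on leaving out replicate 1 or 2 of Ctrl. Transcripts from the plasmid and from the chromosome were not separated.

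The cells carried most markers of their line. The 12 markers of A549 and epithelial cells summed to between 10240 FPKM in Ctrl replicate 3 and 12510 FPKM in APEX1-OE replicate 1, led by the keratins KRT8 (3023 ± 468 FPKM in APEX1-OE and 3069 ± 443 FPKM in Ctrl, SD, n = 3 each), KRT18 and KRT7 and by the aldehyde dehydrogenase ALDH3A1. The epithelial adhesion gene EPCAM was low, at 0.18 to 0.52 FPKM. Markers of alveolar type II cells, the cell type A549 is often used to model, were low. Their sum lay between 20.7 and 23.5 FPKM and was led by the lipid transporter ABCA3, followed by LAMP3, SFTPD and NAPSA, while NKX2-1, SFTPA2 and SFTPB were at or below 0.05 FPKM in every library. Markers of leukocytes, endothelium and fibroblasts summed to between 22.9 and 29.4 FPKM, nearly all of it ACTA2 at 23.8 ± 2.74 FPKM in APEX1-OE and 25.8 ± 1.96 FPKM in Ctrl (SD, n = 3 each), an actin that cultured epithelial cells can also make. CD68 and COL1A1 followed at low levels, COL3A1 was at 0.06 FPKM in APEX1-OE, and CD3E, PECAM1, VWF, CDH5 and PDGFRB were at or below 0.06 FPKM in every library. None of these marker genes was called by edgeR, DESeq2 or limma, and none had an unadjusted p under 0.05 in edgeR's condition-only fit. With the library set as a term, 2 of the 12 A549 markers were higher and 3 lower at that p, and none was called. In that fit 1973 of all 16971 tested genes had such a p, 1461 of them higher.

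In the Ctrl libraries the AP-1 genes differed widely in level. By mean FPKM the order was JUNB (80.6 ± 14.7), JUND (44.1 ± 8.07), FOSL2 (36.9 ± 1.74), FOSL1 (17.2 ± 3.35), JUN (12.7 ± 0.724), ATF3 (9.03 ± 0.526), ATF2 (2.55 ± 0.860), FOS (1.22 ± 0.104) and FOSB (0.3 ± 0.0529), each as mean ± SD of 3 libraries. The ranges of the 3 Ctrl libraries overlapped for the neighbours JUND and FOSL2 and for FOSL1 and JUN, which thus did not differ beyond their spread, and the other neighbours in the order did not overlap. Among the 11499 genes with at least 1 FPKM on average in Ctrl, 688 stood above JUNB (5.98%), 3597 above JUN (31.3%) and 10851 above FOS (94.4%). The textbook AP-1 pair, JUN and FOS, was thus in the middle and near the bottom of the family in these cells. The FOS-related genes FOSL2 and FOSL1 carried most of the FOS-type transcript. In APEX1-OE the means stood in the same order, but more neighbours overlapped there, namely JUND and FOSL2, FOSL2 and FOSL1, FOSL1 and JUN, JUN and ATF3, and ATF2 and FOS.

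**Figure D1:**
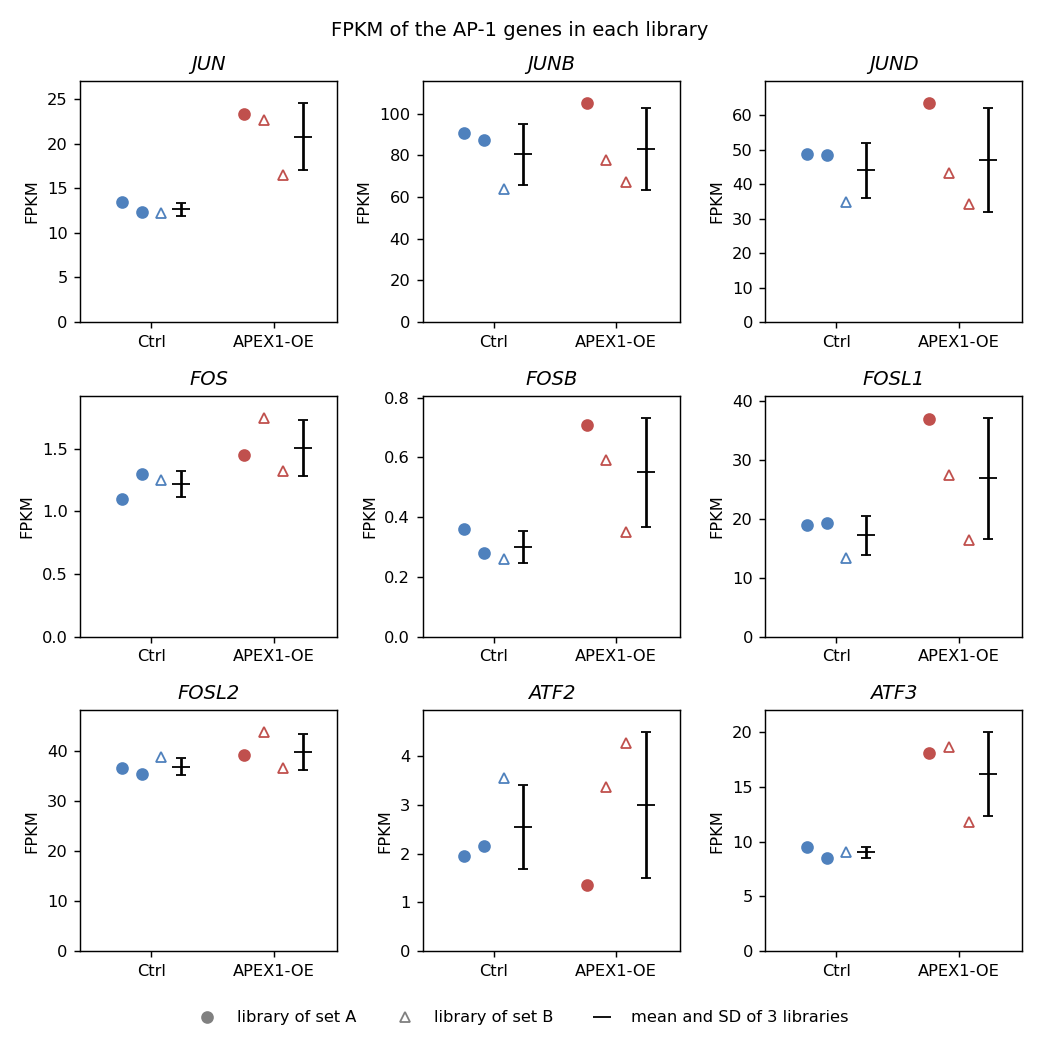
FPKM of each AP-1 gene (vertical axis, from 0, with a scale of its own in each panel) in the 3 Ctrl (blue) and 3 APEX1-OE (red) libraries, with filled circles for set A, open triangles for set B and the mean with its SD beside them. JUN, ATF3 and, by a small margin, FOS lie above all Ctrl libraries in every APEX1-OE library, while JUNB, JUND and ATF2 follow the library sets.

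JUN, the founding member and the strongest activator among the JUN proteins, lies on the minus strand of chromosome 1 (chr1:58776845-58784048, GRCh38). Its level was 23.3, 22.6 and 16.4 FPKM in the 3 APEX1-OE libraries, in the order of their replicate numbers, and 13.5, 12.3 and 12.2 FPKM in the 3 Ctrl libraries. All 3 APEX1-OE libraries were above all 3 Ctrl libraries, the nearest being APEX1-OE replicate 3, and the Ctrl libraries lay close together. The mean was 20.8 ± 3.77 FPKM in APEX1-OE and 12.7 ± 0.724 FPKM in Ctrl (SD, n = 3 each), a ratio of 1.64. On the scale of normalized counts the log2 fold change of JUN was 0.71 (standard error 0.240), and 212 of the 16971 genes had a larger one. The log2 difference was 0.96 within set A and 0.66 within set B, so both sets had JUN higher in APEX1-OE. Between the sets, JUN was higher in set A by 0.53 among the APEX1-OE libraries and by 0.22 among the Ctrl libraries, on the log2 scale. With between 1626 and 3972 counts in each library, counting error was small beside the spread between libraries.

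ATF3, a stress-induced partner of JUN that can activate or repress depending on the dimer, had the most similar pattern among the 9 genes. Its level was 18.1, 18.6 and 11.8 FPKM in the APEX1-OE libraries and 9.54, 8.49 and 9.06 FPKM in the Ctrl libraries. As for JUN, the groups did not overlap and APEX1-OE replicate 3 was the lowest of its group. The mean was 16.2 ± 3.80 FPKM in APEX1-OE and 9.03 ± 0.526 FPKM in Ctrl (SD, n = 3 each), a ratio of 1.79, and the log2 fold change was 0.84 (standard error 0.264). Within sets A and B the log2 difference was 1.12 and 0.71, and set A was above set B by 0.55 within APEX1-OE and 0.14 within Ctrl.

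JUN and ATF3 also shared a short motif in their promoter windows, shown here because these were the AP-1 genes whose groups did not overlap in CPM. The windows, from RefSeq on GRCh38.p14, run from 250 bases before the annotated start to 50 bases after it and were matched for 7 of the 9 genes (FOSL1 and ATF2 were not matched), 8 windows in all since ATF3 has separate starts. Printed below are the 250 bases before the start of JUN (chr1:58784048-58784297, minus strand) and of the first start of ATF3 (chr1:212565157-212565406, plus strand), each 5′ to 3′ along the gene, with the letters TGACATCA in capitals.
JUN: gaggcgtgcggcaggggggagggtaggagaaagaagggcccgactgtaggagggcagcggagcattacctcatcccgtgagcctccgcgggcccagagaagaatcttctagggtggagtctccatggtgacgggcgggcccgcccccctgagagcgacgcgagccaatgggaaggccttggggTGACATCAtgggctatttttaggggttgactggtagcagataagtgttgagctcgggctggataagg
ATF3: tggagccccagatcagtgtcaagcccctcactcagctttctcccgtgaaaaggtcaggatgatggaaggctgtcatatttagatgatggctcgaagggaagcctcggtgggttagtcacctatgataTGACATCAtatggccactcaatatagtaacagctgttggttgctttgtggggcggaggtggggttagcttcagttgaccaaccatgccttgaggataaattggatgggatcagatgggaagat
The motif TGACATCA, searched on both strands, begins at position -67 of JUN and -123 of ATF3, where the first transcribed base is 1 and the base before it -1. It was in no other window of the family, the other ATF3 window included, and in 2.61% of all 35116 windows. Which start of ATF3 these cells used was not measured. In the textbook account, JUN and ATF2 dimers bind a site of this type in the JUN promoter, by which JUN activates its own gene. The search used the letters of this JUN site, so a match in JUN was fixed in advance. The AP-1 site TGANTCA was found in the FOSL2 window alone (7.71% of all windows), and the cyclic AMP response element TGACGTCA in that of JUND alone (1.85%). The shorter core TGACG, which is contained in the latter, was in 6 of the 7 genes, all but ATF3, and in 24.6% of all windows. The CArG box, to which serum response factor binds, was in none of the 8 windows (1.29% of all windows), which says only that these letters are not there. The GC box GGGCGG was found in all but JUNB (45% of all windows), and CCAAT in JUN, ATF3, JUNB and JUND (34.6%). A match is a description of the sequence, and binding was not measured.

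JUNB and JUND, the JUN genes with the most transcript, did not show the separation seen for JUN. JUNB, which often restrains JUN activity and is itself an immediate early gene, was at 105, 77.6 and 67.1 FPKM in the APEX1-OE libraries and 90.5, 87.5 and 63.7 FPKM in the Ctrl libraries. The groups overlapped throughout, and the libraries of set A were high and those of set B low in both conditions. JUND, the steadily expressed member of the family, was at 63.6, 43.2 and 34.2 FPKM in APEX1-OE and 48.9, 48.5 and 34.7 FPKM in Ctrl, with the same division by set. Pooled over the sets, the log2 fold changes were 0.05 (standard error 0.295) for JUNB and 0.10 (standard error 0.333) for JUND, far within the spread between libraries. Within the sets the log2 difference of JUNB was 0.35 and 0.17 and that of JUND 0.50 and 0.14, and for JUND APEX1-OE replicate 3 lay below Ctrl replicate 3 in its set. In the condition-only fit the directions depended on single libraries, since without APEX1-OE replicate 1 the log2 fold change was -0.28 for JUNB and -0.31 for JUND, and without Ctrl replicate 3 it was -0.13 and -0.08. With the library set as a term they were larger, at 0.27 (standard error 0.0945) for JUNB and 0.33 (standard error 0.113) for JUND, and neither gene was called. In that fit both stayed above 0 whichever library was left out.

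As a share of the summed FPKM of JUN, JUNB and JUND, JUN made up 12.1%, 15.8% and 14.0% in the APEX1-OE libraries and 8.82%, 8.30% and 11% in the Ctrl libraries. The share of JUN was higher in every APEX1-OE library than in every Ctrl library, while JUNB was the main JUN transcript in all 6, with 54.1% to 57.0% in APEX1-OE and 57.6% to 59.2% in Ctrl. Being ratios within a library, these shares do not depend on the scaling between libraries, but they did differ between the library sets. In each condition the share of JUN was higher in set B than in set A. Within set A it was 12.1% in APEX1-OE against 8.82% and 8.30% in Ctrl. Within set B it was 15.8% and 14.0% in APEX1-OE against 11% in Ctrl.

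Among the FOS genes, which cannot form dimers without a JUN partner, FOSL2 and FOSL1 held nearly all transcript. FOSL1 (FRA1), which lacks the strong activation domain of FOS and is associated with invasive growth of epithelial tumours, was at 36.9, 27.4 and 16.4 FPKM in the APEX1-OE libraries and 18.9, 19.3 and 13.3 FPKM in the Ctrl libraries. APEX1-OE replicates 1 and 2 were above all Ctrl libraries and replicate 3 was below Ctrl replicates 1 and 2, so the groups overlapped. Both sets had FOSL1 higher in APEX1-OE, by 1.06 and 0.66 on the log2 scale, against a pooled log2 fold change of 0.66 (standard error 0.376). FOSL1 also followed the sets, and its pooled log2 fold change was 0.23 without APEX1-OE replicate 1. FOSL2 (FRA2), its close relative, was among the steadiest of the family, at 39.2, 43.7 and 36.6 FPKM in APEX1-OE and 36.5, 35.3 and 38.7 FPKM in Ctrl. Its groups overlapped, and its log2 fold change was 0.10 (standard error 0.177), with 0.24 within set A and 0.04 within set B. The pooled log2 fold change of FOSL2 was 0.009 without APEX1-OE replicate 1 and 0.21 without APEX1-OE replicate 3.

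FOS and FOSB, the classic immediate early genes with full activation domains, were scarce. FOS was at 1.45, 1.75 and 1.32 FPKM in the APEX1-OE libraries and 1.1, 1.3 and 1.25 FPKM in the Ctrl libraries. On the FPKM scale APEX1-OE replicate 3 was just above the highest Ctrl library, but in CPM the groups overlapped, with 4.38 CPM in APEX1-OE replicate 3 and 4.92 CPM in Ctrl replicate 2. These values rest on 110 to 255 counts in a library, and the exact Poisson 95% intervals, which cover counting error only, of APEX1-OE replicate 3 (139 to 190 counts) and Ctrl replicate 3 (143 to 194 counts) overlapped. The log2 fold change of FOS was 0.29 (standard error 0.237), with 0.39 and 0.27 within the sets. FOSB was at 0.71, 0.59 and 0.35 FPKM in APEX1-OE and 0.36, 0.28 and 0.26 FPKM in Ctrl. APEX1-OE replicates 1 and 2 were clearly above the Ctrl libraries, and replicate 3 was just under Ctrl replicate 1. The log2 fold change of FOSB was 0.87 (standard error 0.362), from between 66 and 162 counts in a library, and it was higher in APEX1-OE within both sets, by 1.24 and 0.76. Without APEX1-OE replicate 1 its pooled log2 fold change was 0.52, below ATF3 at 0.64 and beside JUN at 0.51. On the log2(FPKM + 1) scale, which compresses low values, the difference over all 6 libraries was 0.25.

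Within the summed FPKM of the 4 FOS genes, FOSL1 made up 47.2%, 37.3% and 29.9% in the APEX1-OE libraries and 33.3%, 34.4% and 24.9% in the Ctrl libraries, and FOSL2 most of the rest. The share of FOSL1 overlapped between the groups and was higher in APEX1-OE within each set. FOS and FOSB together were between 2.56% and 3.19% of the sum in the 6 libraries.

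**Figure D2:**
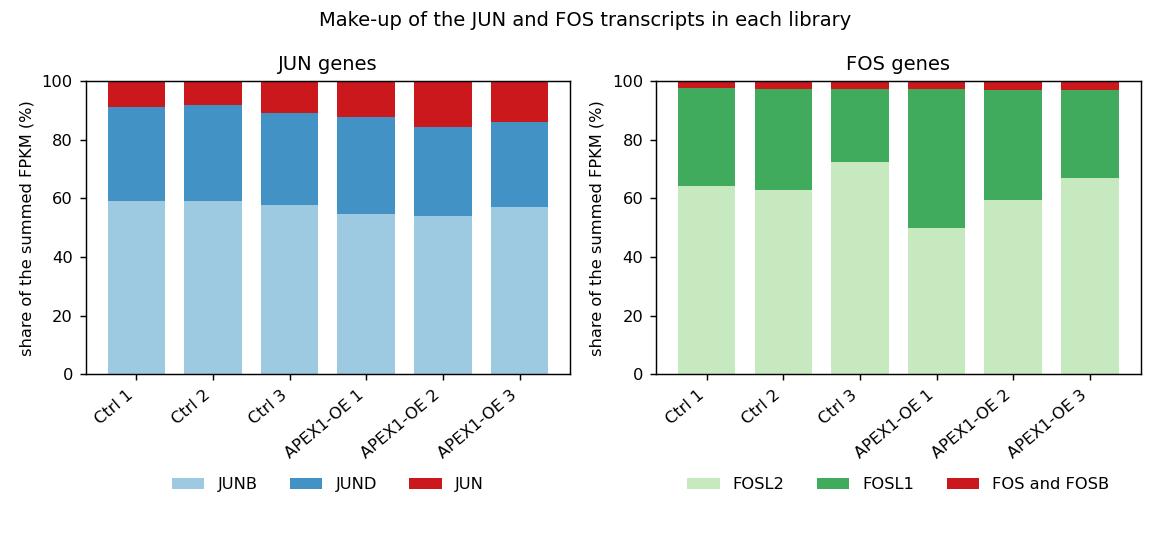
Stacked shares (vertical axis, % of the summed FPKM) of JUNB, JUND and JUN (left) and of FOSL2, FOSL1 and FOS with FOSB (right) in each library (horizontal axis). The JUN share is 8.30% to 11% in the Ctrl libraries and 12.1% to 15.8% in the APEX1-OE libraries, and FOS with FOSB is a thin band in all 6.

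ATF2, which is present before a stimulus and is activated by phosphorylation rather than by new transcription, differed from the other 8 genes in the direction of its difference between the sets. It was at 1.36, 3.36 and 4.27 FPKM in the APEX1-OE libraries and 1.96, 2.16 and 3.54 FPKM in the Ctrl libraries. The groups overlapped, and set B was above set A within each condition. Its log2 fold change of 0.19 (standard error 0.376) turned to -0.16 (standard error 0.151) when the library set was a term in the fit, and within the sets the log2 difference was -0.48 and 0.09.

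Counted over the family, edgeR's condition-only fit called 0 of the 9 AP-1 genes, beside 0.00589% of the 16971 genes tested (1 gene, APEX1), and DESeq2 and limma on log2(FPKM + 1) also called 0 of them. With the library set as a term it called 1 of the 9, JUN, beside 0.0236% of the tested genes (4 genes). With an offset for GC content and gene length as well, it again called JUN alone of the 9, beside 0.118% of the tested genes (20 genes). All APEX1-OE libraries were above all Ctrl libraries in CPM for 2 of the 9, JUN and ATF3, beside 1.38% of the tested genes, and below for none, beside 2.01% of the tested genes. APEX1-OE was above Ctrl within both library sets for 6 of the 9, JUN, JUNB, FOS, FOSB, FOSL1 and ATF3, beside 17.8% of the tested genes. Since the family was picked with this contrast known, nothing is read from these counts. The call of JUN with the set term was lost on leaving out any of APEX1-OE 1, APEX1-OE 2, Ctrl 1 and Ctrl 2. Without APEX1-OE replicate 3 that fit called 7 of the 9 AP-1 genes among 2864 genes in all, and without Ctrl replicate 3 it called JUN and ATF3 among 13.

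The log2 fold changes of the 9 genes ran from 0.05 for JUNB to 0.87 for FOSB, with a median of 0.29, while the median of all tested genes was 0.03 and 57.5% of them were above 0. All 9 were above 0 in the condition-only fit, and with the library set as a term 8 were, ATF2 having turned. In that fit the standard error of JUN was 0.126 in place of 0.240, and the log2 fold changes were 0.82 for JUN, 0.93 for ATF3, 1.06 for FOSB, 0.89 for FOSL1, 0.33 for FOS, 0.33 for JUND, 0.27 for JUNB and 0.14 for FOSL2. In both fits JUN, ATF3, FOSB and FOSL1 had larger differences than the abundant JUNB, JUND and FOSL2. The size of FOSL1 leaned on 1 library in the condition-only fit, where without APEX1-OE replicate 1 it was at 0.23, beside 0.22 for FOS and 0.47 for ATF2.

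**Figure D3:**
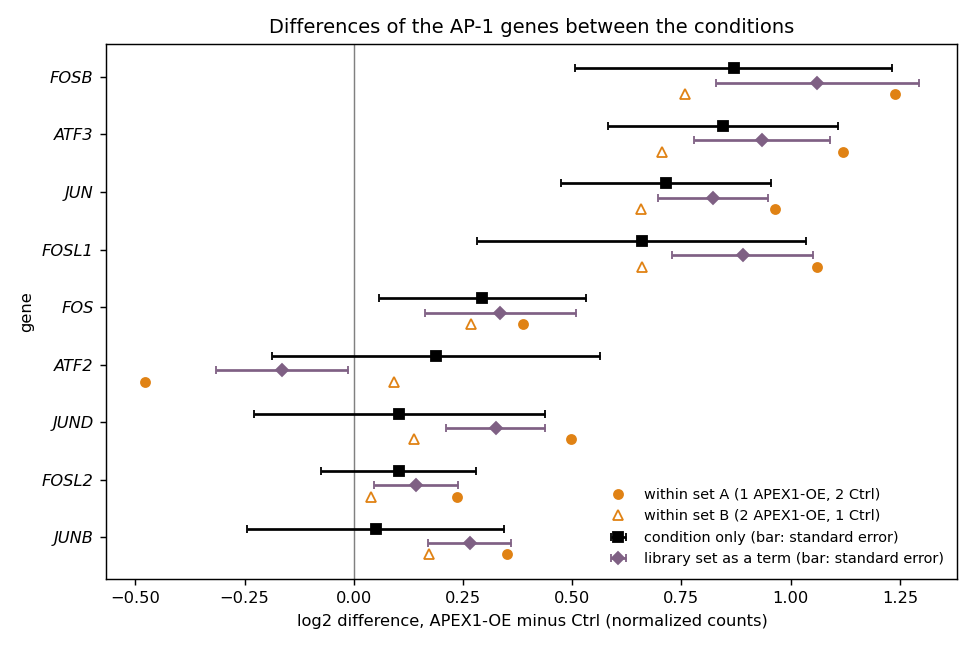
log2 difference of APEX1-OE minus Ctrl (horizontal axis, normalized counts) of each AP-1 gene in the condition-only fit (squares) and with the library set as a term (diamonds), with bars of 1 standard error, and within set A (circles) and set B (triangles). FOSB, ATF3, JUN and FOSL1 lie between 0.66 and 0.87 in the condition-only fit, and ATF2 is below 0 with the set term.

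The difference between the library sets went with base composition among the AP-1 genes. The GC content of their exons (GENCODE release 44, GRCh38) ran from 37.2% in ATF2 to 69.9% in JUND. Since the sets hold unequal numbers of each condition, set A minus set B in log2 CPM was taken within APEX1-OE and within Ctrl and averaged. It was 0.81 for JUND, 0.72 for JUNB, 0.87 for FOSL1 and 0.66 for FOSB, the most GC-rich members, 0.38 for JUN, 0.34 for ATF3, 0.14 for FOS, 0.13 for FOSL2 and -0.92 for ATF2. Across the 9 genes, which share the same libraries, the Pearson correlation of GC content with this difference was 0.902. All tested genes showed the same trend, with a median of -0.89 for the 2465 genes under 40% GC and 0.76 for the 575 genes of at least 65%. JUN and ATF3 are of middle GC content (55% and 50.2%). With the offset for GC content and length, the log2 fold change was 0.75 for JUN, 0.87 for ATF3, 0.86 for FOSB, 0.69 for FOSL1 and -0.12 for ATF2. Where the difference between the sets comes from was not tested.

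**Figure D4:**
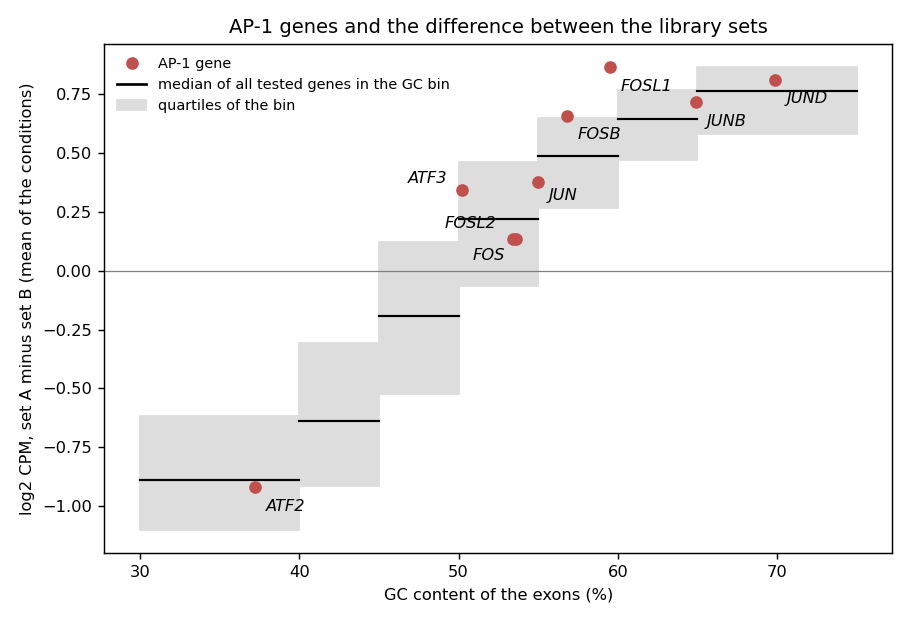
Difference in log2 CPM between the library sets (vertical axis, set A minus set B, mean of the differences within APEX1-OE and within Ctrl) against the GC content of the exons (horizontal axis, %) for the AP-1 genes (red points), with the median (line) and quartiles (grey) of all tested genes in GC bins, the outer bins being open-ended and drawn from 30% and to 75%. ATF2, the poorest in GC, lies at -0.92, and JUND, the richest, at 0.81.

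Over the 6 libraries, the tested genes whose log2 CPM was most correlated with that of JUN were SPRY2 (Pearson r = 0.998), ATF3 (0.993), APOL2 (0.982), CYR61 (0.981) and FOSB (0.979), given as a description over 6 libraries that include both conditions. SPRY2, a feedback inhibitor of growth factor signalling, was at 8.09, 7.65 and 6.51 CPM in APEX1-OE and 6.29, 6.04 and 5.76 CPM in Ctrl. Its groups did not overlap, with a log2 fold change of 0.30 that is smaller than that of JUN. CYR61 (CCN1), a secreted matrix protein and immediate early gene, is described with its list below. APOL2, an apolipoprotein L, moved with JUN in shape but hardly in size, with a log2 fold change of 0.09 and groups that overlapped. Of the other AP-1 genes, FOSL1 ranked 63 in likeness to JUN, FOS 138, FOSL2 221, JUND 1643, JUNB 2120 and ATF2 13653 among the tested genes. For FOS the most correlated genes were NPIPP1 (0.983), SEMA6C (0.982), LINC00665 (0.981), DHRS2 (0.977) and ATP10A (0.977). FOS was at 4.09 to 6.0 CPM, and with so few counts this ranking is loose. NPIPP1 belongs to a family of near-identical copies, and how this bears on its count was not tested.

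Some AP-1 genes overlap others in the annotation, and the sources used here do not say whether the counting used strand. FOSB lies within the span annotated for ERCC1, a DNA repair gene on the opposite strand with 3561 to 4744 counts in a library, against 66 to 162 for FOSB. HOOK2 (467 to 572 counts) spans JUNB on the opposite strand, and FOSL2-AS1 (22 to 56 counts) overlaps FOSL2. If strand was not used, reads of these pairs cannot be told apart, which bears most on FOSB. The genes next to JUN in the annotation are the long noncoding RNAs ENSG00000283445 and ENSG00000290013, whose counts were not analysed here.

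The genes around AP-1 were followed in 7 lists of textbook members, which hold 116 tested genes outside the family. Like the family, these lists were chosen with earlier results of these data known, so counts over them are a description and no independent test. edgeR's condition-only fit called 1 of them higher, APEX1 itself, and none lower. At an unadjusted p under 0.05 there were 7, all higher, beside 0.695% of all tested genes (118 genes, 67 of them higher). With the library set as a term 38 were higher and 5 lower at that p, where 1973 of the 16971 tested genes had such a p. Of those 1973 genes, 1461 were higher. DESeq2 and limma each also called 1. With the library set as a term the number called was 1, and with the GC content and length offset as well it was 3, namely APEX1, CYR61 and TXNIP. All APEX1-OE libraries were above all Ctrl libraries for 9 of the 116 and below for 1, while over all tested genes the shares were 1.38% above and 2.01% below. The overexpressed gene APEX1 is itself among these 9, and among the 7 at an unadjusted p under 0.05.

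Upstream of AP-1, the MAP kinases and their activators had no called gene among 23 tested, and a median log2 fold change of 0.05 beside 0.03 for all tested genes. The most abundant were the ERK kinases' activators MAP2K2 (157 ± 45.1 FPKM in APEX1-OE and 157 ± 32.7 FPKM in Ctrl) and MAP2K1, the p38 activator MAP2K3, and the ERK kinase MAPK3 (10.4 ± 2.66 and 11.2 ± 2.69 FPKM, SD, n = 3 each). No gene of this list had groups that did not overlap. The transcription factors and coactivators that act on the FOS and JUN genes likewise had no called gene among 11, with a median of 0.15, led in level by ELK1 (20.2 ± 5.94 FPKM in APEX1-OE and 18.9 ± 3.43 FPKM in Ctrl), which binds next to serum response factor, MEF2D, MKL1 and TCF3. Neither list had a gene at an unadjusted p under 0.05 in this fit.

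Other leucine zipper proteins, only some of which are known to pair with JUN or FOS, had no called gene among 21 tested. Their median log2 fold change was 0.10, and no gene was without overlap. Their most abundant members were CEBPB (241 ± 56.1 FPKM in APEX1-OE and 236 ± 33.3 FPKM in Ctrl), the stress factor ATF4 (179 ± 18.7 and 176 ± 9.93 FPKM, SD, n = 3 each), MAFK and CREB3. Genes that control the turnover of AP-1 proteins and transcripts had no called gene among 12 and a median of 0.13. GSK3A and CSNK2A1, which modify AP-1 proteins, were among its most abundant, and ZFP36L1, which promotes decay of AU-rich transcripts, was the only one of the 12 without overlap. ZFP36L1 stood at 28.2, 41.5 and 43.3 FPKM in the APEX1-OE libraries and 25, 25.9 and 33.3 FPKM in the Ctrl libraries. On the FPKM scale these values overlap, and in CPM, where the groups were separate, the log2 fold change was 0.40 (standard error 0.187) and the gene was not called.

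The redox partners of APEX1 on the way to AP-1 were, apart from APEX1, not called in the condition-only fit, and some were abundant. PRDX1 (486 ± 95.4 FPKM in APEX1-OE and 524 ± 25 FPKM in Ctrl), a peroxidase, and TXN (470.4 ± 136 and 468 ± 32.5 FPKM, SD, n = 3 each), the thioredoxin that hands electrons to APEX1, differed by less than their spread, as did the thioredoxin reductase TXNRD1 (244 ± 105 and 211 ± 90.2 FPKM). The direction of TXNRD1 turned within the library sets, where its log2 difference was -0.25 in set A and -0.05 in set B. TXNIP, which binds and inhibits thioredoxin, was at 9.33, 11.8 and 10.6 FPKM in the APEX1-OE libraries and 7.70, 6.20 and 7.19 FPKM in the Ctrl libraries. Its groups did not overlap, and its log2 fold change was 0.57 (standard error 0.198) in the condition-only fit, where it was not called, and 0.68 with the set term and the offset, where it was. The median of the 9 genes of this list was 0.01.

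Of 30 textbook target genes of AP-1, 25 had enough counts, none was called and the median log2 fold change was 0.09. The matrix metalloproteinases MMP1, MMP3, MMP10 and MMP13, among the best known AP-1 targets, and involucrin (IVL) were too scarce to test. The most abundant targets were NQO1 (416 ± 14.3 FPKM in APEX1-OE and 460.1 ± 29 FPKM in Ctrl), a quinone reductase, the metallothionein MT2A, the lamin LMNA and the protease inhibitor TIMP1. Groups that did not overlap were seen in both directions. The cytokine IL6 was higher in every APEX1-OE library, at 11.5 to 12.5 FPKM against 9.14 to 10.1 FPKM (log2 fold change 0.28, standard error 0.214). The chemokine CCL2 was lower in every APEX1-OE library, at 13.3 to 16.3 FPKM against 17.1 to 19.9 FPKM (log2 fold change -0.33, standard error 0.196). At an unadjusted p under 0.05 the list had 1 gene higher and 0 lower, and with the set term 8 higher and 3 lower, where all tested genes had 118 and 1973 of 16971 at that p in these fits. Of these 118 and 1973 genes, 67 and 1461 were higher. APEX1-OE was above Ctrl within both sets for 9 of the 25 and below for 4, beside 17.8% and 10% of all tested genes.

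Immediate early genes outside the family respond to many of the stimuli that induce JUN. Of 17 tested genes none was called in the condition-only fit, 4 had an unadjusted p under 0.05 (0.695% of all tested genes), all 17 had a log2 fold change above 0 and the median was 0.26, beside 0.03 for all tested genes. APEX1-OE was above Ctrl within both sets for 13 of the 17 and below for none, where 17.8% of all tested genes were above and 10% below. For 4 of them the groups were separate with APEX1-OE higher, as for 1.38% of all tested genes. EGR1, a zinc finger factor induced with FOS, was at 4.81, 4.44 and 2.66 FPKM in the APEX1-OE libraries and 1.95, 2.14 and 2.12 FPKM in the Ctrl libraries, a log2 fold change of 0.95 (standard error 0.312). As for JUN, APEX1-OE replicate 3 was the lowest of its group and the Ctrl libraries were close together. KLF4, a factor of epithelial differentiation, was at 3.44 to 4.8 FPKM in APEX1-OE and 2.34 to 2.83 FPKM in Ctrl (log2 fold change 0.64, standard error 0.219). CYR61 was at 15.7, 18.0 and 14.3 FPKM in APEX1-OE and 11.2, 10.8 and 11.7 FPKM in Ctrl (log2 fold change 0.50, standard error 0.203), and it was called with the set term and the offset together, at 0.59. Its relative CTGF (CCN2) was at 6.88 to 8.89 FPKM against 4.85 to 6.67 FPKM (log2 fold change 0.45, standard error 0.216). The most abundant genes of the list did not separate the groups. These were the MAP kinase phosphatase DUSP1 (188 ± 23.3 FPKM in APEX1-OE and 187 ± 20 FPKM in Ctrl), the stress phosphatase subunit PPP1R15A (147 ± 56.3 and 94.1 ± 11.2 FPKM, SD, n = 3 each), IER3 and MYC. Since this list too was chosen with earlier results of these data known, nothing is read from its counts. The difference between this list and the other lists was not tested.

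**Figure D5:**
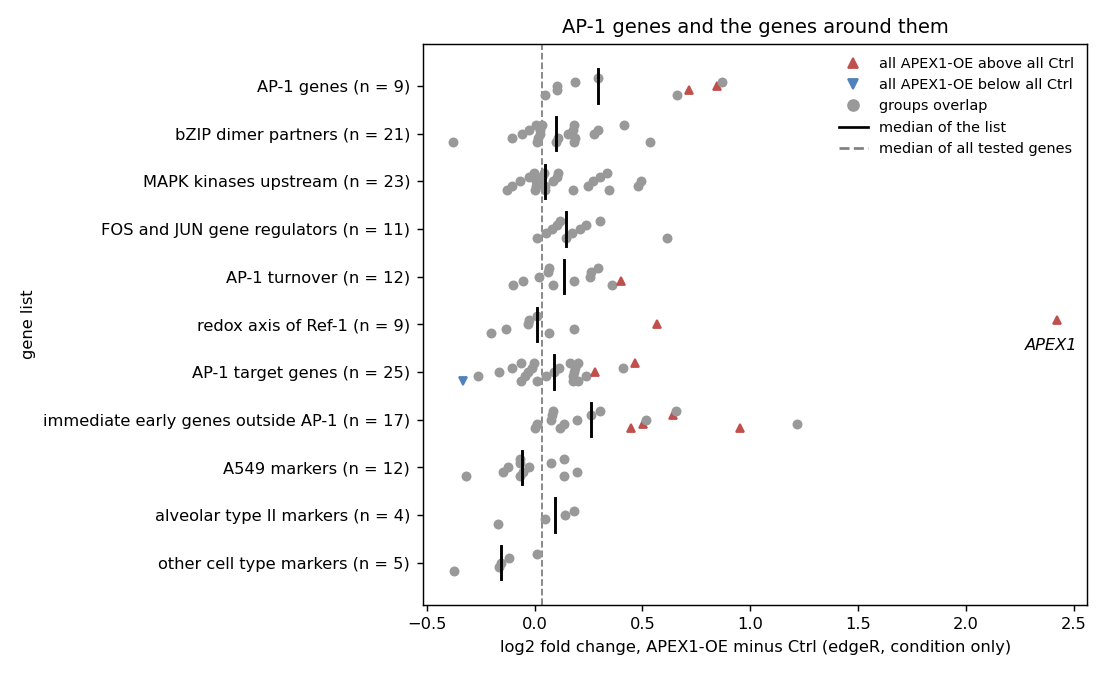
log2 fold change of APEX1-OE minus Ctrl (horizontal axis, edgeR condition-only fit) of each tested gene of the AP-1 family and of the pathway and marker lists (vertical axis), with the median of each list (black) and of all 16971 tested genes (dashed, 0.03). Triangles mark genes whose groups do not overlap, among them APEX1 at 2.42, and the immediate early genes outside AP-1 have a median of 0.26.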

How the data were processed

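RNA was sequenced from 3 APEX1-OE and 3 Ctrl libraries of A549 cells, grouped by the sample labels. The authors discarded reads rich in N, trimmed with the FASTX-Toolkit, aligned to GRCh38 with tophat2 and kept uniquely mapped reads, and the deposited count of each gene is a raw whole number. The deposited FPKM of each gene was also calculated by the authors and is rounded to a few decimals. The sources used here do not name the counting tool and annotation, or say whether strand was used.

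The 9 AP-1 genes and the gene lists were chosen with earlier results of these data known. Counts were filtered by filterByExpr (minimum count 10, minimum total 15), scaled by TMM and fitted by the robust quasi-likelihood method of edgeR 4.0.16 in R 4.3.3, with no term but the condition over all 6 libraries, and Benjamini-Hochberg adjustment at 0.05 over 16971 genes. Alternatives used DESeq2 1.42.0, limma 3.58.1 on log2(FPKM + 1) and log2(FPKM + 0.1), other scalings and filters, the replicate number as a block, each library left out, the library set as a term, and an offset per gene and library from splines (5 degrees of freedom) on GC content and length, known for 98.7% of the tested genes. The edgeR fit was tested on simulated counts. Correlations, intervals and figures used Python 3.11.15, scipy 1.17.1 and matplotlib 3.10.9. Promoter windows came from RefSeq (GRCh38.p14). No pair of libraries was alike within sampling noise, the closest being Ctrl replicates 1 and 2, with a chi-square of 3.86 per degree of freedom.

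The lists were other leucine zipper proteins (labelled as dimer partners), MAP kinases, regulators of the FOS and JUN genes, turnover, redox partners, target genes and other immediate early genes. Markers of A549, alveolar type II and other cells were listed as well. The genes named are the 9 AP-1 genes, APEX1, in each list every called gene, the 4 with the highest mean FPKM and the tested genes whose groups do not overlap in CPM, the 5 genes most correlated with JUN and with FOS, and the overlapping or adjacent genes. Some genes that meet these rules are not reported here by name, but the counts over the lists include them. Splicing was not analysed here.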

Additional observations from a re-analysis of the deposited data

How the results depend on the processing

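The number of AP-1 genes called was 0 with DESeq2, limma, other scalings and filters, the GC content and length offset alone, and the replicate block. It was 1 with the library set as a term and 1 with that term and the GC content and length offset. Leaving out each library gave 0 without the set term and between 0 and 7 with it, the 7 without APEX1-OE replicate 3, where 2864 genes were called in all, and 2 without Ctrl replicate 3. Leaving out libraries with the set term in the fit was chosen after seeing the data. The number of AP-1 pathway genes called was 1, and 3 with the set term and the offset. With each library left out it lay between 0 and 1 (0 without APEX1-OE replicates 2 or 3 or Ctrl replicates 1 or 2), and between 1 and 66 with the set term, 66 without APEX1-OE replicate 3 and 2 without Ctrl replicate 3. It was 1 with the replicate block. The causes were not tested.

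The log2 fold change of JUN was above 0 in all 26 alternatives, from 0.51 without APEX1-OE replicate 1 to 0.96 within set A, and 0.68 with the replicate block. FOS, FOSB, FOSL1, FOSL2 and ATF3 were also above 0 in each alternative run, JUNB and JUND in 22 of 24 and ATF2 in 15 of 24. FOSB moved to 0.25 on log2(FPKM + 1), and ATF2 to -0.49 with the set term without Ctrl replicate 3.

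The replicate numbers did not pair the libraries. Deviations from the group means of all tested genes correlated between same-numbered libraries at 0.607, -0.521 and 0.7, and APEX1-OE replicate 1 correlated better with Ctrl replicate 2 (0.636) than with its own number. With the replicate block 2 genes were called over all tested genes, in place of 1.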

Other observations

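Among themselves, the AP-1 genes followed more than 1 course over the 6 libraries. JUNB and JUND, both rich in GC, were correlated at 0.993 in log2 CPM (Pearson r over 6 libraries, a description), and each was opposed to ATF2, at -0.970 and -0.972. JUN, ATF3 and FOSB were correlated at 0.965 to 0.993 with each other, and JUN with JUNB at only 0.534. FOSL1 stood between these courses, at 0.900 with JUN and 0.834 with JUNB.

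The values have limits. With 3 libraries a condition and library sets that cut across the conditions, set A holds 1 APEX1-OE and set B 1 Ctrl library, so a difference within a set rests on 1 library of one condition. FOS and FOSB rest on few counts, and FOSB overlaps a far more abundant gene. Transcript levels say nothing of protein, phosphorylation, redox state or DNA binding. Effects of the plasmid and of APEX1 cannot be told apart beyond what the control plasmid shares.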
